A study of Mus musculus with 4 samples.

Results

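The unfolded protein and integrated stress response genes described here are 30 genes picked by name, of 55401 genes with counts and 24473 with FPKM values (fragments scaled to gene model length and library total). By role they comprise 5 stress sensors and transcription factors, 9 chaperones and folding enzymes of the endoplasmic reticulum (ER), 3 genes of ER-associated degradation and 13 targets of the transcription factor ATF4. They were measured by RNA sequencing in the immortalised mouse microglial line BV-2, and every library came from cells given lipopolysaccharide (LPS, a bacterial cell wall component) at 100 ng/mL for 24 h. The 2 control libraries carry the genotype label WT and the titles sh c1 and sh c2, and the 2 knockdown libraries carry the label SIX2 knockdown and the titles sh s1 and sh s2. Because the control titles also begin with sh, WT may not stand for unmodified cells, and no library without LPS was analysed here. Nothing in the labels says that replicates were separate cultures, so the p-values reflect the spread among these 4 libraries alone, and that spread may be technical. In such bulk samples, fewer cells of a kind and less RNA per cell cannot be told apart.

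ER stress is read by 3 membrane sensors. PERK (gene Eif2ak3) phosphorylates the initiation factor eIF2, which lowers general translation and favours translation of ATF4, IRE1 (Ern1) splices the Xbp1 mRNA, and ATF6 is cut in the Golgi to release a transcription factor. ATF6 and spliced XBP1 raise chaperones and degradation factors of the ER, whereas ATF4 raises amino acid synthesis and transport together with the regulators CHOP (Ddit3), TRIB3 and GADD34 (Ppp1r15a). Kinases other than PERK, activated by amino acid shortage or double-stranded RNA for example, feed the same ATF4 arm. In macrophages, Toll-like receptor signalling is known to activate IRE1 and the splicing of Xbp1. Counts per gene do not separate the spliced from the unspliced form of Xbp1, and mRNA levels do not report ATF4 translation.

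The promoters were searched for the sequence elements through which the ATF6 and ATF4 arms are known to act, and matches are shown because those arms are compared below. RefSeq promoters (GRCm38.p6, 250 bases before to 50 after the start site) matched 27 of the 30 genes; Atf6, Hyou1 and Slc7a5 had no entry. The ER stress element, to which ATF6 binds with NF-Y, was searched as CCAAT, any 9 bases and CCACG on both strands and found in 5 of 8 chaperone genes, 0 of 12 ATF4 targets and 0.119% of all 32851 promoter entries. In the lines below, capitals mark the match, including its spacer, and each sequence is read along the gene's strand.
Hspa5, chr2:34772020-34772048, plus strand: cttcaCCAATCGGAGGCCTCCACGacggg
Hsp90b1, chr10:86705633-86705661, minus strand: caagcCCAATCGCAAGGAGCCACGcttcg
Hsp90b1, chr10:86705528-86705556, minus strand, element on the opposite strand: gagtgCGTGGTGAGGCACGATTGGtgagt
Pdia6, chr12:17266486-17266514, plus strand: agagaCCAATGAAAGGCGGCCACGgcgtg
Dnajc3, chr14:118937822-118937850, plus strand: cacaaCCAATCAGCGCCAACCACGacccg
Creld2, chr15:88819515-88819543, plus strand, element on the opposite strand: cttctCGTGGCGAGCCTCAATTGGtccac

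The element bound by ATF4 with C/EBP partners was searched as TGATGNAA on both strands and found in 4 of 12 ATF4 targets (Asns, Chac1, Nupr1 and Trib3), 0 of 8 chaperones and 3.97% of all entries. The 3 that lay before the start site follow (the match in Trib3 lay after it), with capitals marking the match.
Asns, chr6:7693220-7693237, minus strand: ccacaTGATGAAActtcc
Chac1, chr2:119351044-119351061, plus strand, element on the opposite strand: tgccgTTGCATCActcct
Nupr1, chr7:126625568-126625585, minus strand, element on the opposite strand: ccagaTTGCATCAgacag

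Herpud1 was the only one of the 27 genes with a match of both kinds. Its promoter held the ATF4 and C/EBP element and a second type of ER stress element, searched as ATTGG, any 1 base and CCACG on both strands, which was found in 0.0365% of all entries and in no other member. The stretch of 122 bases that ends at the base before its RefSeq start site is given with both matches in capitals, the ATF4 element (opposite strand) before the ER stress element.
Herpud1, chr8:94386307-94386428, plus strand: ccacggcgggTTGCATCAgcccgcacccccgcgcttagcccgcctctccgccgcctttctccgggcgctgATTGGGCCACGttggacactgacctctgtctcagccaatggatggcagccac
The core of the XBP1 element, TGACGTGG, was in 0.676% of entries and in 0 of the 27. The searched elements did not overlap each other in any member. A match is a description of letters, and its absence says only that these letters are not in the window.

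Libraries held 61.0 to 75.7 M counts, or 15.2 to 18.9 M fragments at about 4 counts a fragment, and a floor of 3 fragments (12 counts) amounted to 0.159 to 0.197 CPM (counts scaled to a common library total), a limit for counting error alone. The targeted gene, Six2, was at 0 counts in each of the 4, so the knockdown could not be checked on its mRNA. All 10 microglial markers were above the floor in at least 1 library, with Cx3cr1 at 19 to 54 counts and P2ry12 at 0 to 24, and their summed level, most of it Cd68 and Tyrobp, was 1045 to 1092 FPKM in control and 968 to 983 FPKM in knockdown libraries. Of these markers, 3 fell by edgeR's quasi-likelihood test with Benjamini-Hochberg adjustment: Aif1 (11.8 and 14.0 FPKM in the controls, 5.57 and 6.64 in the knockdown libraries, adjusted p = 0.0440), Csf1r (48.5 and 49.3, then 35.6 and 33.0 FPKM, adjusted p = 0.0426) and Adgre1 (71.3 and 76.9, then 45.6 and 48.1 FPKM, adjusted p = 0.0198). Tmem119 had 10.2 and 8.83 FPKM, then 5.69 and 4.67 FPKM (adjusted p = 0.0751 by edgeR), P2ry12 was not expressed enough to be tested, and the other 5 did not pass. Traces of transcripts that mark other cell types were present, and whether they came from such cells was not tested. The 5 neuronal markers summed to 0.696 to 0.869 FPKM in control and 0 to 0.367 FPKM in knockdown libraries. All 5 were at 0 in knockdown 2. The 4 oligodendrocyte markers summed to 1.88 to 2.03 FPKM in control and 0.0444 to 1.21 FPKM in knockdown libraries. The astrocyte (4 markers), fibroblast (4, with Dcn and Pdgfra never above the floor) and endothelial (3, with Cldn5 never above it) sums lay between 0.00872 and 0.432 FPKM in every library. The part of these markers in the results was not tested.

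The 30 genes spanned a wide range of levels, and chaperones and serine synthesis enzymes led the order. Phgdh, the entry enzyme of serine synthesis, was highest at 250 to 278 FPKM over the 4 libraries. Hspa5 (the chaperone BiP, 183 to 207 FPKM), Hsp90b1 (the ER HSP90, 178 to 193 FPKM) and Shmt2 (mitochondrial serine hydroxymethyltransferase, 181 to 194 FPKM) followed, with ranges that overlapped so that their order was not settled. Psat1, the second enzyme of serine synthesis, had 154 to 173 FPKM, Sdf2l1 119 to 137 and Atf4 itself 85.1 to 116 FPKM. At the other end stood the sensors Eif2ak3 (2.38 to 3.43 FPKM) and Ern1 (2.23 to 2.98 FPKM). Chac1, a glutathione-degrading enzyme that ATF4 and CHOP induce, had counts of 4 and 0 in the controls, against 0 and 12 in the knockdown libraries, at or under the floor throughout. It was the 1 member not expressed enough to be tested, and no fold is given. A second gene model that also bears the name Ddit3 had 1 count in each library and was left out.

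**Figure D1:**
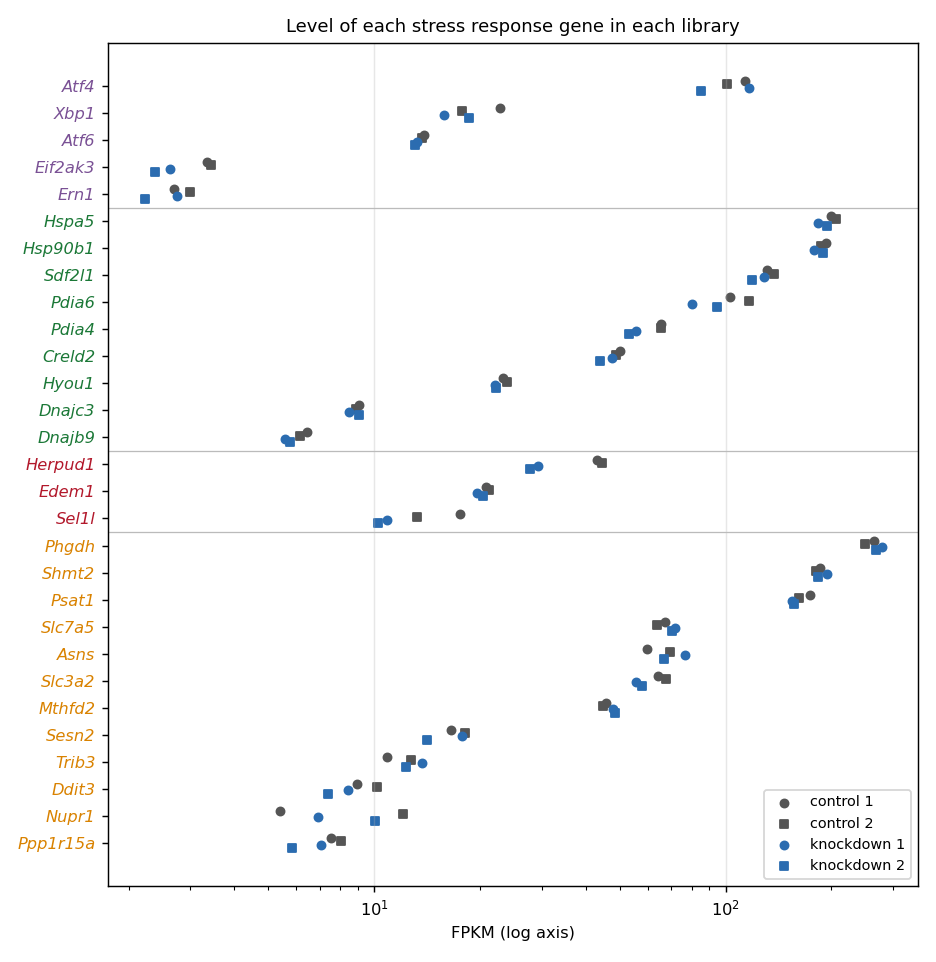
Level of 29 of the 30 genes (Chac1, at or under the floor, is left out) in FPKM on a log axis, 1 point per library: grey for control and blue for knockdown, circles for replicate 1 and squares for replicate 2, with gene names coloured by role. Levels ran from 2.23 FPKM (Ern1, knockdown 2) to 278 FPKM (Phgdh, knockdown 1), and Herpud1 shows a gap between grey and blue points.

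In knockdown libraries Herpud1 fell by 33.3% and the other members did not pass the test. Over all genes, 0.953% of 15733 tested were called by edgeR's quasi-likelihood test at a Benjamini-Hochberg adjusted p under 0.05 (0.547% lower and 0.407% higher), and of the 29 members tested 1 was lower, 0 were higher and 28 did not pass. At an unadjusted p under 0.05 by edgeR, 6 members were lower and 0 higher, against 6.7% and 7.52% of all genes (14.2% in either direction). The 6 were Herpud1, Sel1l, Eif2ak3, Pdia4, Pdia6 and Slc3a2. Of these, 5 encode proteins of the ER, while Slc3a2 encodes a plasma membrane transporter subunit. The list itself holds 9 ER chaperones and folding enzymes, 3 degradation genes and the ER sensors, so ER proteins are common among the members tested. The members' median log2 fold change (knockdown minus control) was -0.07, beside -0.01 over all genes, and 22 of 29 fitted values were below 0 against 51.1% of all genes. In a wider list of the same pathways, described further on, 52 of 97 were below 0 and the median was -0.01.

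**Figure D2:**
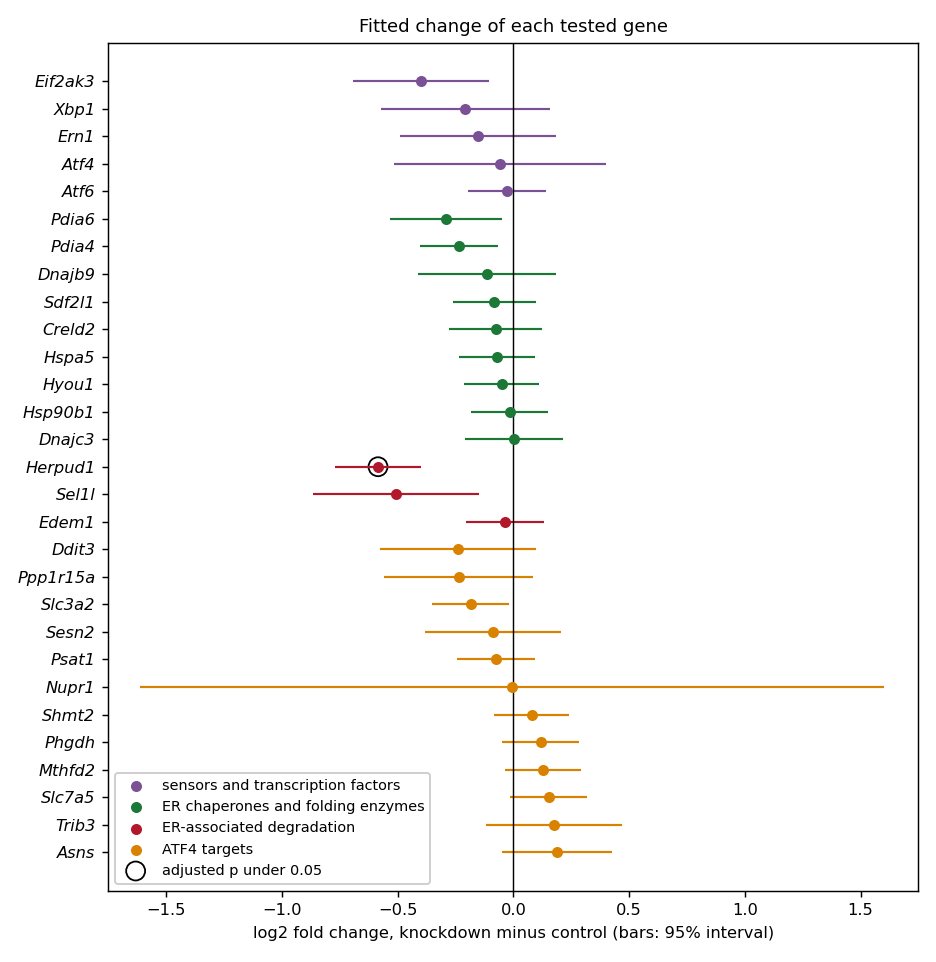
Fitted log2 fold change, knockdown minus control, of the 29 tested genes with 95% intervals from the edgeR fit, coloured by role and ordered within role. Herpud1 (-0.58, circled) is the 1 gene with an adjusted p under 0.05, most chaperones sit just below 0, and Nupr1 has the widest interval (-1.61 to 1.60).

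Among the genes of ER-associated degradation, which returns misfolded proteins to the cytosol for destruction, Herpud1 fell, Sel1l had a fitted value of similar size that did not pass, and Edem1 was close to equal. Herpud1 (ENSMUSG00000031770, GRCm38 chromosome 8, 94386438 to 94395377, plus strand) encodes HERP, an ER membrane protein that helps assemble the HRD1 ubiquitin ligase complex. It had 111 and 113 CPM (TMM-scaled, as all CPM below) in the control libraries and 76.7 and 73.0 CPM in the knockdown libraries. Control libraries differed by 1.02-fold and knockdown libraries by 1.05-fold, so the groups lay far apart relative to their spread. The log2 fold change was -0.58 ± 0.08 (SE, 95% interval -0.77 to -0.40, adjusted p = 0.0299 by edgeR with Benjamini-Hochberg adjustment). The gene model Gm15890 overlaps Herpud1 on the other strand, and the labels do not say whether counting used the strand, so their reads may not be told apart. The value lay between -0.62 and -0.55 in 17 other fits, 8 of which called it. Among the fits that lost the call were limma-voom, edgeR without the robust option, limma on FPKM, and edgeR without any 1 of the 4 libraries (adjusted p = 0.0510 to 0.161, by edgeR or limma with Benjamini-Hochberg adjustment).

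Sel1l (chromosome 12, 91806043 to 91849157, minus strand) encodes the adaptor that joins HRD1 to its substrates. It had 166 and 124 CPM in the controls, against 105 and 99.3 CPM in the knockdown libraries. Both knockdown libraries were below both controls, as for 23.8% of all genes tested, but the controls differed by 1.34-fold between themselves. The log2 fold change of -0.51 ± 0.14 (SE, adjusted p = 0.218 by edgeR) did not pass, and DESeq2 gave an adjusted p of 0.0247. The value was -0.28 without control replicate 1 and -0.70 without control replicate 2. Edem1, a lectin-like factor that picks out misfolded glycoproteins, had 148 and 150 CPM in the controls, against 143 and 149 CPM in the knockdown libraries. Its interval, -0.21 to 0.13 on the log2 scale, bounds any difference at a small size in either direction.

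Among ER chaperones and folding enzymes most fitted values lay a little below 0 and none passed. Of 9 tested, 0 passed by edgeR, against 0.953% of all genes. At an unadjusted p under 0.05 by edgeR, 2 were lower and 0 higher, against 6.7% and 7.52% of all genes. Fitted values were below 0 for 8 of the 9, against 51.1% of all genes. The median log2 fold change was -0.08 (a difference in level of -5.14%). Both knockdown libraries lay below both control libraries for 6 of the 9 and above them for 0, where 23.8% of all genes tested lay below and 23.8% above (47.6% either way). On FPKM 7 of the 9 lay below and 0 above, where 27.5% of all genes tested lay below and 20% above on that scale. Of the 22 wider chaperone and folding genes described further on, 6 lay below and 5 above by CPM, and 14 fitted values were below 0.

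The 2 protein disulfide isomerases, which form and rearrange disulfide bonds, had the largest fitted differences among the 9. Pdia4 had 173 and 172 CPM in the controls, against 150 and 144 CPM in the knockdown libraries. Its control libraries were nearly equal, and the log2 fold change was -0.23 ± 0.07 (SE, adjusted p = 0.215 by edgeR, 0.0418 by DESeq2). Pdia6 had 425 and 477 CPM in the controls, against 338 and 398 CPM in the knockdown libraries. The gap between the nearest libraries of the 2 groups was smaller than the spread within either group, and the log2 fold change was -0.29 ± 0.10 (SE, adjusted p = 0.269 by edgeR). It became -0.18 without knockdown replicate 1 and -0.41 without knockdown replicate 2. The microRNA gene Mir704 lies within Pdia4 on the same strand, and Atp6v1c2 overlaps Pdia6 on the other.

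The major chaperones were nearly level. Hspa5 (chromosome 2, 34771970 to 34777547, plus strand) had 933 and 957 CPM in the controls, against 871 and 929 CPM in the knockdown libraries. The nearest control and knockdown libraries differed by less than the 2 knockdown libraries did from each other. Its log2 fold change was -0.07 with a 95% interval of -0.23 to 0.09. Hsp90b1 had 859 and 825 CPM in the controls, against 807 and 859 CPM in the knockdown libraries, so the groups overlapped, and its interval was -0.18 to 0.15. Hyou1, a nucleotide exchange factor for BiP, had 186 and 189 CPM in the controls, against 180 and 182 CPM in the knockdown libraries, a small and non-overlapping difference with an interval of -0.21 to 0.11.

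The J-domain co-chaperones of BiP did not pass either. Dnajb9 had 18.1 and 17.1 CPM in the controls, against 16.0 and 16.6 CPM in the knockdown libraries. Dnajc3 had 51.5 and 49.9 CPM in the controls, against 49.0 and 52.5 CPM in the knockdown libraries. Dnajc3 was the only chaperone above 0 (log2 fold change 0.00 ± 0.09, SE), and its sign changed in 11 of 17 other fits. Sdf2l1, part of an ER chaperone complex, had 161 and 166 CPM in the controls, against 160 and 149 CPM in the knockdown libraries, and Creld2, an ER-resident protein secreted under stress, had 75.6 and 72.8 CPM against 72.8 and 67.9 CPM. The chaperones with a matched ER stress element (Hspa5, Hsp90b1, Dnajc3, Pdia6 and Creld2) ranged from -0.29 to 0.00 on the log2 scale, and Pdia4, Sdf2l1 and Dnajb9, which had a promoter entry but no match, from -0.23 to -0.08.

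The sensors and transcription factors above these genes gave no call, with 5 of 5 fitted values below 0, where 51.1% of all genes were below 0. Of the 20 wider sensors and factors described further on, 9 were below 0 and 11 above. Eif2ak3, encoding PERK, had 22.2 and 22.7 CPM in the controls, against 17.8 and 16.2 CPM in the knockdown libraries. Its knockdown libraries lay below both controls, as for 23.8% of all genes tested. Its log2 fold change was -0.40 ± 0.12 (SE, adjusted p = 0.225 by edgeR). The gene model Gm23346 overlaps it on the same strand. Ern1, encoding IRE1, had 24.4 and 26.7 CPM in the controls, against 25.3 and 20.6 CPM in the knockdown libraries. Atf6 had 141 and 138 CPM in the controls, against 137 and 136 CPM in the knockdown libraries. Its groups did not overlap either, with an interval of -0.20 to 0.14 on the log2 scale. Among the 3 sensors, knockdown 2 was thus the lowest library for each.

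Xbp1 and Atf4, the factors downstream, varied between replicates. Xbp1 (chromosome 11, 5520659 to 5525893, plus strand) had 81.7 and 63.4 CPM in the controls, against 57.6 and 68.1 CPM in the knockdown libraries. The groups overlapped, and the controls differed by 1.29-fold. Atf4 (chromosome 15, 80255184 to 80257541, plus strand) had 296 and 260 CPM in the controls, against 308 and 227 CPM in the knockdown libraries. The 2 knockdown libraries, at 1.36-fold apart, enclosed both controls, and the log2 fold change was -0.06 with a 95% interval of -0.51 to 0.40. Without control replicate 1, or without knockdown replicate 2, its sign was positive.

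ATF4 targets went both ways: 6 of 12 fitted values were below 0 and 6 above, none passed, and the median log2 fold change was 0.04. Knockdown libraries lay above both controls for 5 (Trib3, Phgdh, Shmt2, Mthfd2 and Slc7a5) and below both for 3 (Ddit3, Ppp1r15a and Slc3a2), against 23.8% of all genes in each direction. On FPKM the counts were 3 above and 4 below, since Trib3 and Shmt2 then overlapped and Psat1 did not, against 20% of all genes above and 27.5% below on that scale. The targets were also read by function, a split made after the values were seen. Of 7 genes of amino acid supply 5 were above 0 (median 0.12), and 4 of 5 tested stress regulators were below 0 (median -0.09). Over all genes, 51.1% were below 0, and of the 37 wider ATF4 targets described further on, 17 were below 0 and 20 above. Among the 5 stress regulators the sign changed for Nupr1 in 7 of 17 other fits and for Sesn2 in 1 of 16.

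Of the enzymes, Asns, which makes asparagine, had 181 and 207 CPM in the controls, against 236 and 207 CPM in the knockdown libraries. Control 2 and knockdown 2 were alike, and the log2 fold change was 0.19 ± 0.10 (SE, adjusted p = 0.463 by edgeR). Phgdh had 728 and 680 CPM in the controls, against 777 and 750 CPM in the knockdown libraries, a log2 fold change of 0.12 with an interval of -0.05 to 0.28. Psat1, the next step in the same pathway, had 815 and 753 CPM in the controls, against 737 and 753 CPM in the knockdown libraries and a log2 fold change of -0.07 (interval -0.24 to 0.10). The mitochondrial folate enzymes had fitted values a little above 0. Shmt2 had 636 and 617 CPM in the controls, against 679 and 644 CPM in the knockdown libraries, and Mthfd2 176 and 171 CPM against 187 and 191 CPM. Neither passed by edgeR (adjusted p = 0.674 for Shmt2 and 0.477 for Mthfd2).

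Slc7a5 and Slc3a2, whose products pair as the light and heavy chains of the LAT1 amino acid transporter, lay in opposite directions. Slc7a5 (chromosome 8, 121881150 to 121907694, minus strand) had 276 and 259 CPM in the controls, against 300 and 295 CPM in the knockdown libraries (log2 fold change 0.15 ± 0.07, SE). The gene model Gm20388 overlaps Slc7a5 on the other strand. Slc3a2 (chromosome 19, 8706882 to 8723369, minus strand) had 251 and 262 CPM in the controls, against 221 and 230 CPM in the knockdown libraries (log2 fold change -0.18 ± 0.07, SE). Groups did not overlap for either gene, and neither passed (adjusted p = 0.392 for Slc7a5 and 0.299 for Slc3a2 by edgeR). The ratio of Slc7a5 to Slc3a2 in FPKM was 1.05 and 0.942 in control and 1.29 and 1.22 in knockdown libraries. This ratio was chosen after the values were seen and is given as a description, with no test.

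**Figure D3:**
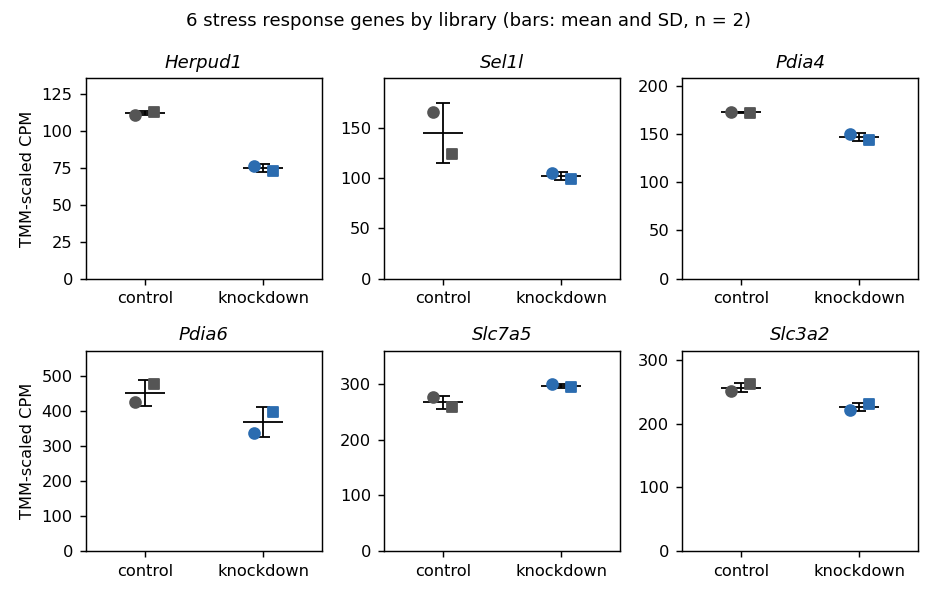
TMM-scaled CPM of 6 members in each library, on axes that start at 0, with the mean and SD of each group (n = 2 each). Herpud1 shows tight replicates and a clear step down, Sel1l a wide control spread, and Slc7a5 and Slc3a2 small steps in opposite directions.

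The stress regulators were at lower levels with wider intervals. Ddit3, encoding the pro-apoptotic factor CHOP, had 17.0 and 19.1 CPM in the controls, against 16.3 and 14.3 CPM in the knockdown libraries. Ppp1r15a, whose product GADD34 directs dephosphorylation of eIF2 and so restores translation, had 24.5 and 25.8 CPM in the controls, against 23.3 and 19.4 CPM in the knockdown libraries. Both had log2 fold changes of -0.24 and intervals that included 0. Trib3, a pseudokinase that restrains AKT and ATF4, had 25.6 and 29.6 CPM in the controls, against 32.6 and 29.7 CPM in the knockdown libraries (log2 fold change 0.18 ± 0.12, SE). Sesn2, an inhibitor of mTORC1 upon leucine shortage, had 63.6 and 69.1 CPM in the controls, against 69.4 and 55.5 CPM in the knockdown libraries. Nupr1, a small stress-induced chromatin protein, had 15.0 and 33.3 CPM in the controls, against 19.6 and 28.5 CPM in the knockdown libraries. The controls differed 2.22-fold, so the data say little on Nupr1 in either direction. For Ddit3, the gene Mars overlaps on the other strand.

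Set side by side, the median fitted value of the ER chaperones lay a little below that of the ATF4 targets. The chaperone median minus the ATF4 target median of log2 fold changes was -0.11, and -0.18 to -0.10 in 17 other fits. In those fits the chaperone median ran from -0.11 to -0.06 and the ATF4 target median from 0.00 to 0.09. In each library the median difference from the 4-library mean (log2 CPM) was 0.04 and 0.04 for chaperones in control and -0.05 and -0.03 in knockdown libraries. ATF4 targets had -0.01 and 0.01 in control and 0.06 and 0.00 in knockdown libraries. The gap between the 2 role groups was 0.05 and 0.03 in control and -0.12 and -0.03 in knockdown libraries, with a within-group SD of 0.05. The 2 groups of libraries did not overlap in this gap, but knockdown 2 stood nearer to control 2 than to knockdown 1. By CPM the groups also did not overlap for 47.6% of all genes tested. No test was made of this margin, because members are not replicates and the members were chosen with results known. Without knockdown replicate 1 the margin was -0.18.

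**Figure D4:**
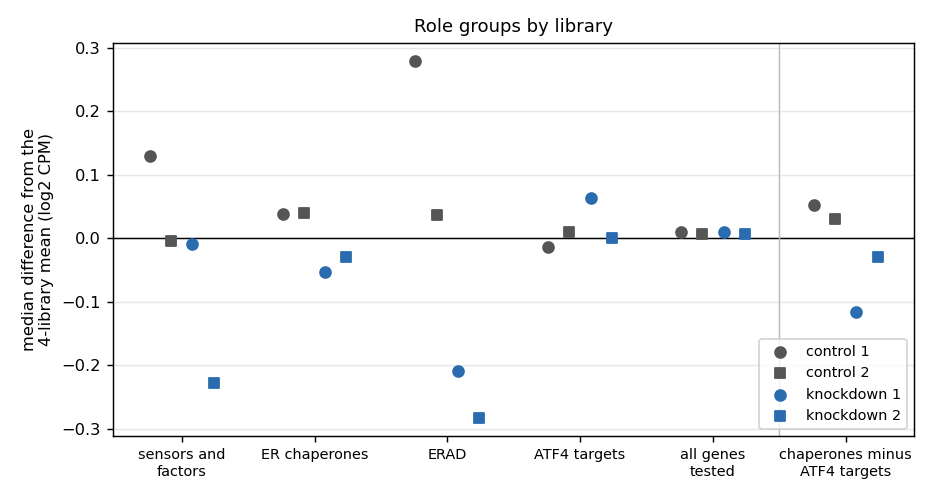
Median over each role group of log2 CPM minus the gene's mean over the 4 libraries, 1 point per library (grey control, blue knockdown; circles replicate 1, squares replicate 2); the rightmost column is chaperones minus ATF4 targets. Chaperones show a small step (0.04 in control, -0.05 and -0.03 in knockdown libraries), ATF4 targets overlap, and all genes tested stay at 0.01.

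A wider list of 100 other genes of the same pathways, sorted by the same roles, held 97 tested genes, of which 1 was lower and 0 were higher. The 1 call was Ddit4, an mTORC1 inhibitor counted here among the ATF4 targets although hypoxia and other signals also drive it, at 67.4 ± 0.150 CPM in the controls, against 19.5 ± 4.05 CPM in the knockdown libraries (SD, n = 2 each, adjusted p = 0.0145 by edgeR). At an unadjusted p under 0.05 by edgeR, 9 were higher and 10 lower, beside the 7.52% and 6.7% of all genes given above. Cth, Fgf21 and Tnfrsf10b were not expressed enough to be tested.

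The wider chaperone and folding genes gave no call. Of 22 tested, 0 passed, against 0.953% of all genes, and the median log2 fold change was -0.05. At an unadjusted p under 0.05 by edgeR, 2 were higher and 5 lower, against 7.52% and 6.7% of all genes. The 2 with the lowest p follow, and both were lower. Ero1a, the oxidase that recharges the disulfide isomerases, had 165 ± 10.5 CPM in the controls, against 124 ± 0.509 CPM in the knockdown libraries (SD, n = 2 each, adjusted p = 0.0795 by edgeR). P4hb, which encodes the prototype disulfide isomerase PDI, had 650 ± 19.3 and 552 ± 6.39 CPM (adjusted p = 0.189 by edgeR). Of 18 wider degradation genes 0 passed, with a median of -0.05. Derl2, a channel component of the HRD1 complex, had 73.2 ± 4.40 and 59.1 ± 2.33 CPM, and Edem2 73.0 ± 4.68 and 59.0 ± 3.71 CPM.

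The wider ATF4 targets had 37 tested genes with 1 lower (Ddit4) and 0 higher, against 0.547% and 0.407% of all genes. Their median log2 fold change was 0.02. At an unadjusted p under 0.05 by edgeR, 5 were higher and 2 lower, against 7.52% and 6.7% of all genes. Slc1a4, a neutral amino acid transporter, had 18.9 ± 0.607 CPM in the controls, against 27.2 ± 0.840 CPM in the knockdown libraries (adjusted p = 0.112 by edgeR). Of 20 wider sensors and factors 0 passed, with a median of 0.01. Map3k5, the kinase ASK1 downstream of IRE1, had 7.01 ± 0.213 and 10.6 ± 1.35 CPM, and Atf5, a relative of ATF4, 29.9 ± 1.02 and 36.6 ± 3.50 CPM.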

How the data were processed

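RNA was sequenced from 2 control and 2 SIX2 knockdown libraries, grouped by the genotype label. The deposited values were estimated counts per gene, already whole numbers and not normalised, and FPKM, which per the file headers the authors had normalised for length and depth. The submitters' processing notes name Bowtie 0.12.2 and build mm8. Coordinates in the files equalled those of GENCODE M21 (GRCm38, used here) for 86.4% of 24422 genes. No source used here names the counting program. Among low counts, 42.1% to 47.2% were multiples of 4, and a fragment was treated as some 4 counts. Most low counts were not such multiples, so the numbers of fragments and the floor are approximate. Another 12 columns matched no labelled sample and were not used.

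The main test was edgeR 4.0.16 under R 4.3.3, with filterByExpr, TMM scaling and a robust quasi-likelihood fit by the earlier dispersion method, two-sided and Benjamini-Hochberg adjusted over 15733 genes. SE and 95% intervals come from that F statistic. Alternatives used DESeq2 1.42.0, limma 3.58.1 and other settings. FPKM fits took genes at 0.1 or more in 2 libraries and tested log2(FPKM + 1) or log2(FPKM + 0.1), where folds of low genes are understated. The scripts were tested on simulated data.

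All 30 members were named, and of the wider list each called gene and the 2 with the lowest p per role. Members and lists were chosen with earlier results of these data known.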

Additional observations from a re-analysis of the deposited data

How the results depend on the processing

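The tested members kept their fitted sign in every alternative that tested them, except Atf4, Hsp90b1, Sesn2, Dnajc3 and Nupr1, none of which passed in any; the fit without overlapping genes and pseudogenes tested 22 members. Of 150 genes called over all genes, the count became 806 with DESeq2, 65 with limma-voom, 7 without the robust option, 297 with no filter, 3 with limma on log2(FPKM + 1) and on log2(FPKM + 0.1), and 41 to 112 when 1 library was left out (62 without control 1, 41 without control 2, 112 without knockdown 1 and 42 without knockdown 2). Added after the data were seen, leaving out same-strand overlapping genes and pseudogenes gave 228. The number of members called, 1, became 3 with DESeq2 (Herpud1, Pdia4 and Sel1l) and 0 with limma-voom, without the robust option, in both FPKM fits and without any 1 library, although 3 to 6 members had an unadjusted p under 0.05 there. With the replicate number as a block, edgeR called 0 genes and 0 members, with Herpud1 at an adjusted p of 0.119 (2055 genes and 6 members had an unadjusted p under 0.05). Same-numbered libraries deviated together only weakly (correlation 0.05 over 15733 genes), so the numbers were not taken as pairs. The chaperone minus ATF4 target median, -0.11, was -0.17 with limma-voom and -0.18 to -0.10 when 1 library was left out. The cause of these differences was not tested, except that a fit without 1 library has fewer samples. With 1 library left out, the lone library of its group is assumed to vary like the others.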
